A study of Oryza sativa with 6 samples.

Results

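The loci described here are the 76 rice loci, of 37863 in the count table, whose root tip transcripts were far more abundant in every library from plants grown with Azolla filiculoides than in every library from plants grown alone. They were chosen on CPM (the count of a locus divided by the library's total and multiplied by 1000000), with the lowest co-cultivated value at 2 CPM or more and at least 3 times the highest control value plus 0.1 CPM. That rule found 82 loci. The iron storage genes FER1 and FER2, the vacuolar iron transporter VIT2 and the loci Os04g0538400, Os02g0770800 and Os03g0146800 also met it and were left out. Because the loci were chosen on the contrast between the groups, their differences on it are given as a description and carry no test.

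Both groups were rice (Oryza sativa) of the cultivar Kitaake, moved at 13 days of age into hydroponic boxes of 4 plants with Yoshida's solution and no aeration. Control boxes (R) held rice alone under a covered surface, and co-cultivated boxes (R+Af) held rice with a floating layer of the fern Azolla filiculoides, renewed as it died, so the presence of the fern and the cover cannot be told apart. RNA came from root pieces reaching 1 cm from the tip at 15 DAT, with 3 boxes as biological replicates in each group and totals of 21551508 to 25120456 estimated counts per library. The library totals put 2 CPM at 47 to 50.2 counts in the co-cultivated group.

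Azolla filiculoides carries nitrogen-fixing cyanobacteria and has long been grown in paddies as a green manure. Rice root tips meet dissolved metals directly, and rice is among the cereals most tolerant of aluminium. In rice that tolerance depends on the zinc-finger transcription factor ART1, which is needed for the expression of genes for an aluminium uptake carrier, cell wall modification and transport across membranes. Among the 76 loci, 8 had a symbol that could be checked against the gene table used here. They were NRAT1 and STAR2 of aluminium tolerance, the multicopper oxidase gene LPR4, the transporter genes ZIP5 and HKT1;4, the phosphatase gene PP2C30, the starch synthase gene SSI and the glycosidase gene BGLU30. For the other 68 no symbol was looked up in that table, and they are given by their locus, without a role.

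The 76 loci together took 0.0888%, 0.0862% and 0.0796% of all counts in control replicates 1, 2 and 3, and 0.606%, 0.49% and 0.472% in co-cultivated replicates 1, 2 and 3. Their mean share was 0.0849% ± 0.00478 (SD, n = 3) in the control group and 0.522% ± 0.0726 (SD, n = 3) in the co-cultivated group. A few abundant loci carried most of this, with 69.3% of the members' co-cultivated CPM in the top 10. By mean co-cultivated level, 31 members were under 10 CPM, 32 were between 10 and 100 CPM and 13 were at 100 CPM or more. In bulk RNA, a larger share of the cells that express a gene and more of its RNA in each cell cannot be told apart.

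**Figure D1:**
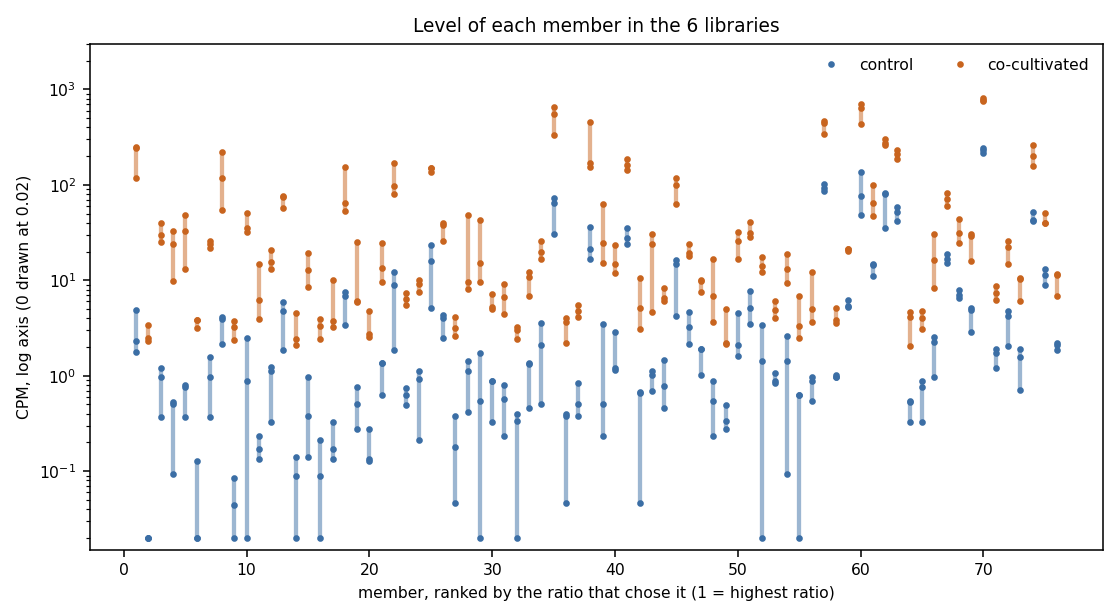
CPM on a log axis of each of the 76 members in the 6 libraries, ranked from left to right by the ratio that chose them, with points for libraries, bars from the lowest to the highest library of a group, and 0 drawn at 0.02. The groups do not overlap at any member because the rule asks for that, and most of the abundant members lie at the lower ranks on the right.

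NRAT1 (Os02g0131800), which in rice encodes an aluminium transporter of the Nramp family, stood at 92.4, 102.5 and 87.1 CPM in control replicates 1 to 3 and at 442, 472 and 340 CPM in co-cultivated replicates 1 to 3. Its control libraries lay close together, and co-cultivated replicate 3 was the lowest of the higher group. The log2 fold change from edgeR was 2.19 ± 0.19 (SE). STAR2 (Os05g0119000), the membrane subunit of a bacterial-type ABC transporter that rice needs to tolerate aluminium, stood at 51.9, 42.2 and 59.0 CPM in the control libraries and at 233, 211 and 188 CPM in the co-cultivated libraries. Its log2 fold change of 2.08 ± 0.19 (SE) was close to that of NRAT1, and both genes varied little within a group.

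The partner subunit and the regulator of these genes were looked up after the members' values had been seen, so their values are descriptions as well. STAR1 (Os06g0695800), the nucleotide-binding subunit that works with STAR2, stood at 126, 81.0 and 98.3 CPM in the control libraries and at 129, 103 and 129 CPM in the co-cultivated libraries. Its groups overlapped, and its log2 fold change was 0.27 ± 0.20 (SE). ART1 (Os12g0170400), the regulator of both subunits, ran from 51.4 to 58.2 CPM in the control group and from 65.6 to 74.9 CPM in co-cultivated libraries. These groups did not overlap, as was so at 11.7% of all tested loci with the co-cultivated group higher. The log2 fold change of ART1 was 0.37 ± 0.14 (SE), and edgeR did not call it at an adjusted p under 0.05. The expansin gene EXPA10 (Os04g0583500) and the magnesium transporter gene MGT1 (Os01g0869200), which in rice also depend on ART1, had log2 fold changes of 1.205 ± 0.281 and 1.107 ± 0.251 (SE). Neither met the ratio that the members had to meet, and edgeR called neither of them at an adjusted p under 0.05. NRAMP5 (Os07g0257200), the manganese and cadmium uptake carrier from the same family as NRAT1, had a log2 fold change of −0.14 ± 0.33 (SE), with control libraries at 130 to 301 CPM and co-cultivated libraries at 148 to 232 CPM.

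**Figure D2:**
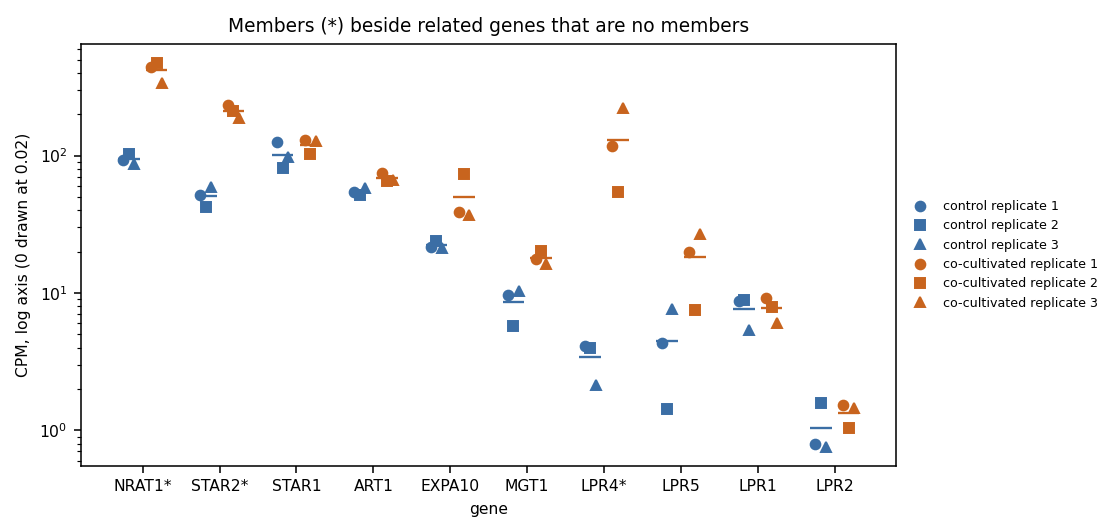
CPM on a log axis in the 6 libraries for the members NRAT1, STAR2 and LPR4 (marked *) and for related genes that are no members, with a marker shape for each replicate and a line at each group mean. NRAT1, STAR2 and LPR4 show a wide gap between the groups, whereas the groups of STAR1, LPR1 and LPR2 overlap.

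LPR4 (Os01g0127000) belongs to the multicopper oxidases whose Arabidopsis relative LPR1 acts in the root's response to low phosphate. It stood at 4.13, 3.94 and 2.15 CPM in the control libraries and at 117, 54.1 and 221 CPM in the co-cultivated libraries. All co-cultivated libraries were far higher, but they spread widely among themselves, and co-cultivated replicate 3 was the highest. The log2 fold change was 5.28 ± 0.57 (SE). The next locus in the table, Os01g0127100, is also a member. It stood at 0.133, 0.232 and 0.169 CPM in the control libraries and at 6.18, 3.94 and 14.9 CPM in the co-cultivated libraries. Its order over the co-cultivated libraries was that of LPR4, whose CPM was 19, 13.7 and 14.8 times as high in replicates 1, 2 and 3.

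The other genes of this family on chromosome 1 gave smaller differences. LPR5 (Os01g0127200) stood at 4.35, 1.44 and 7.68 CPM in the control libraries and at 19.9, 7.48 and 27.1 CPM in the co-cultivated libraries, so the groups overlapped between co-cultivated replicate 2 and control replicate 3. LPR5 shared with LPR4 the order of the co-cultivated libraries, with replicate 3 highest and replicate 2 lowest. LPR1 and LPR2 had log2 fold changes of 0.05 ± 0.28 and 0.39 ± 0.40 (SE), with overlapping groups. Os01g0126900, which lies directly before LPR4 in the locus order, had a log2 fold change of 1.71 ± 0.32 (SE) and was no member. It ran from 11.9 to 29.5 CPM in the control group and from 59.4 to 66.8 CPM in the co-cultivated group. At an adjusted p under 0.05 edgeR called it higher, and did not call LPR1, LPR2 or LPR5. Similar genes can share reads, and how the counting divided them is not given in the sources used here.

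Transporters for zinc and for sodium were among the checked names. ZIP5 (Os05g0472700), a zinc transporter of the ZIP family, stood at 2.84, 1.21 and 1.14 CPM in the control libraries and at 14.7, 23.6 and 11.8 CPM in the co-cultivated libraries, a log2 fold change of 3.30 ± 0.45 (SE). ZIP9 (Os05g0472400), a zinc uptake gene close by in the locus order, had a log2 fold change of 2.16 ± 0.77 (SE). Its control libraries at 3.37, 0.418 and 1.35 CPM overlapped the co-cultivated libraries at 7.97, 11.7 and 2.69 CPM, since co-cultivated replicate 3 lay below control replicate 1. HKT1;4 (Os04g0607600), a sodium transporter, was near the lower limit of the rule at 0.0888, 0 and 0.211 CPM in the control libraries and 3.28, 2.43 and 3.94 CPM in the co-cultivated libraries. Its log2 fold change of 4.93 ± 0.67 (SE) rested on 2, 0 and 5 control counts. The related HKT1;1 (Os04g0607500) was under 0.4 CPM in all 6 libraries and was too low to be fitted.

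The remaining checked names belonged to hormone signalling and carbohydrate metabolism. PP2C30 (Os03g0268600), a clade A protein phosphatase that restrains abscisic acid signalling, stood at 7.81, 5.15 and 3.50 CPM in the control libraries and at 40.4, 31.5 and 28.5 CPM in the co-cultivated libraries, a log2 fold change of 2.64 ± 0.32 (SE). SSI (Os06g0160700), a soluble starch synthase, stood at 1.07, 0.835 and 0.886 CPM and at 4.94, 6.13 and 4.06 CPM in the same order, a log2 fold change of 2.47 ± 0.28 (SE). The SSI groups were compact, whereas the control libraries of PP2C30 spread more widely around their mean. BGLU30 (Os09g0491100), of the plant beta-glucosidase family, stood at 0.977, 0.139 and 0.380 CPM in the control libraries and at 12.9, 19.4 and 8.52 CPM in the co-cultivated libraries. Its log2 fold change was 4.79 ± 0.62 (SE), with control replicate 2 at 3 counts.

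**Figure D3:**
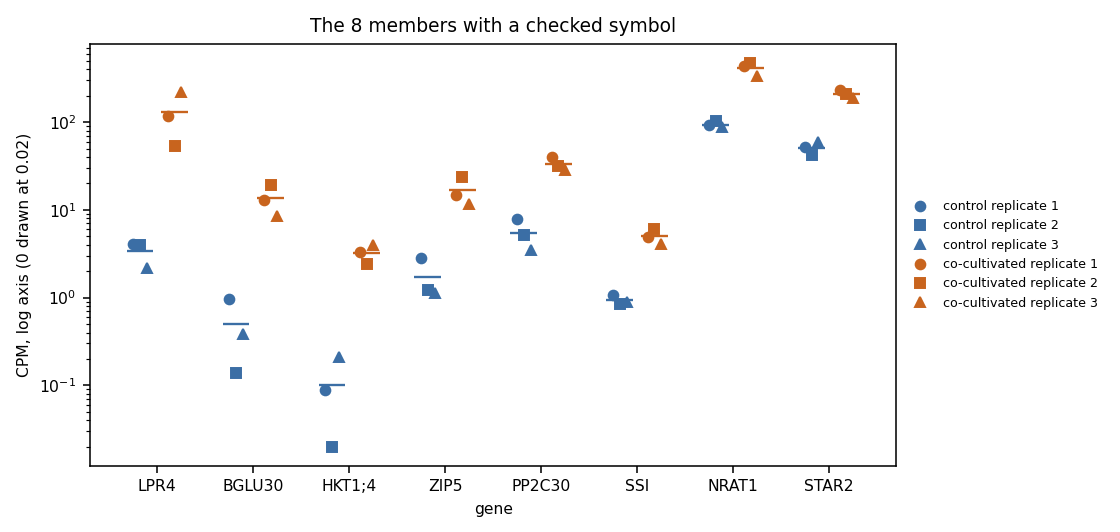
CPM on a log axis in the 6 libraries for the 8 members with a checked symbol, with a marker shape for each replicate and a line at each group mean. NRAT1 and STAR2 have the highest control levels of the 8, and LPR4 has the widest spread over the co-cultivated libraries relative to its mean among them.

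Among all members the highest ratio was at Os12g0227400, which stood at 4.88, 2.32 and 1.77 CPM in the control libraries and at 247, 245 and 117 CPM in the co-cultivated libraries. Its lowest co-cultivated library was 23.5 times its highest control library with 0.1 CPM added, and the log2 fold change was 6.12 ± 0.52 (SE). Co-cultivated replicates 1 and 2 were alike, and replicate 3 was lower. The ratio was 10 or more for 11 members, from 5 to 10 for 19 and under 5 for 46.

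Many members were barely detected in the control group. There were 26 members under 1 CPM in every control library and 10 at 0 in at least 1 of them, 9 of which were at 0 in control replicate 2. Os08g0113900 had no count in the control group and 198 counts in the co-cultivated group. Against a floor of 3 counts over the control group it was at least 60.9-fold higher. Os01g0924966 had 3 counts in the control group against 265, a ratio of 81.5 with an exact 95% interval of 27.6 to 397.6. Os01g0731600 had 3 against 227, a ratio of 69.8 with an interval of 23.6 to 340.9. The floor and the intervals cover counting error only.

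The loci with the next highest ratios spanned a range of behaviours within the co-cultivated group. Os05g0411100 was the most even, at 22.0, 24.1 and 25.5 CPM against 1.55, 0.371 and 0.970 CPM in the control libraries. Os07g0531200 stood at 25.0, 39.7 and 30.1 CPM against 1.199, 0.371 and 0.970 CPM. Os04g0660900 stood at 48.3, 13.1 and 32.9 CPM against 0.755, 0.371 and 0.802 CPM. In this last locus co-cultivated replicate 1 was the highest and replicate 2 the lowest, and in Os11g0305400, at 32.5, 24.1 and 9.80 CPM against 0.533, 0.0928 and 0.506 CPM, replicate 3 was the lowest. Os10g0334500 stood at 51.0, 35.5 and 31.8 CPM in the co-cultivated libraries, and its control libraries ran from 0 CPM in replicate 2 to 2.49 CPM in replicate 3. Os07g0106700 and Os01g0803900 had mean co-cultivated levels of 16.4 and 69.6 CPM and log2 fold changes of 4.22 ± 0.46 and 4.07 ± 0.41 (SE). Os01g0919100 lay between 2.09 and 4.50 CPM in the co-cultivated group and at or below 0.139 CPM in the control group.

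The most abundant members had ratios mostly near the lower limit of the rule. Os07g0683900 was the most abundant and had the smallest log2 fold change of all members, 1.78 ± 0.17 (SE), at 230, 213 and 244 CPM in the control libraries and 804, 766 and 749 CPM in the co-cultivated libraries. Both of its groups were narrow. Os06g0152600 stood at 77.2, 135 and 48.1 CPM in the control libraries and at 703, 639 and 431 CPM in the co-cultivated libraries, a log2 fold change of 2.81 ± 0.41 (SE). Os02g0543000 stood at 64.0, 30.7 and 73.5 CPM in the control libraries and at 652, 334 and 556 CPM in the co-cultivated libraries, a log2 fold change of 3.23 ± 0.41 (SE). In both of these loci 1 library of a group was well apart from the rest of that group. Os08g0189300 was more uneven still, with co-cultivated replicate 1 at 459 CPM and replicates 2 and 3 at 155 and 167 CPM, against 16.6 to 36.2 CPM in the control group. Os10g0376200 and Os08g0156600 had mean co-cultivated levels of 162 and 207 CPM and log2 fold changes of 2.52 ± 0.21 and 2.22 ± 0.23 (SE).

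Over all loci, edgeR's quasi-likelihood test with Benjamini-Hochberg adjustment called 360 of 24615 tested loci higher in the co-cultivated group, which is 1.46%, and 288 lower, which is 1.17%. All 76 members passed the filter on low counts and 69 of them were among the loci called higher, a count that the choice of members on the same contrast makes uninformative. The 7 others were Os04g0308600, Os01g0731100, Os01g0355250, Os01g0237750, Os06g0283100, Os05g0219900 and Os07g0174400. The groups failed to overlap, with the co-cultivated group higher, at 2878 of the tested loci, or 11.7%. The median log2 fold change of the members was 3.33, with a range of 1.78 to 9.02 in which the top value belongs to the locus with no control count, and that of all tested loci was −0.03. The number of members called fell to 26 without control replicate 1 and to 30 without co-cultivated replicate 1. In these runs the loci called higher over all tested loci fell from 360 to 65 and to 56.

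The level in the co-cultivated libraries relative to one another was not used by the rule beyond its minimum. Co-cultivated replicate 1 was the highest of the 3 libraries for 38 members (50%), and replicate 3 was the lowest for 39 (51.3%). Among the other 18583 tested loci with at least 2 CPM in every co-cultivated library, these shares were 24% and 23.6%. With TMM scaling, which adjusts for composition, the gap was smaller. Replicate 1 was then the highest for 42 members (55.3%) against 31.7% of the other loci, and replicate 3 the lowest for 39 (51.3%) against 32.2%. The same order was frequent in a list of phosphate starvation genes that holds no member. On CPM, replicate 1 was the highest there at 17 of 21 loci and replicate 3 the lowest at 17. In other lists, replicate 1 was the highest at 11 of 14 iron deficiency loci, with replicate 3 the lowest at 7. Replicate 3 was the lowest at 15 of 24 nitrate loci and 5 of 6 root markers. Further lists had other orders, with replicate 2 the highest at 8 of 8 cytokinin response loci and replicate 3 at 10 of 11 phytoalexin loci. In the control group, replicate 2 was the lowest for 43 members (56.6%) against 37.9% of the other loci. These shares are descriptions over loci that share 6 libraries and carry no test.

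**Figure D4:**
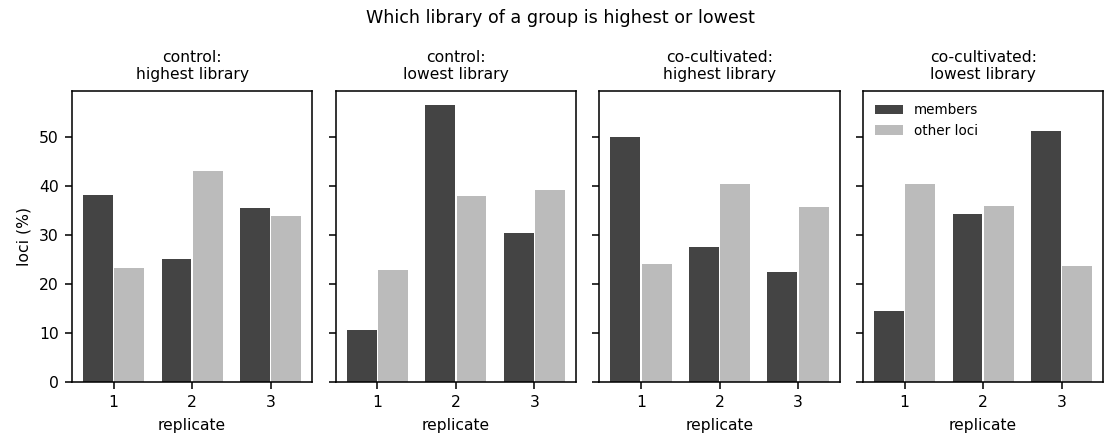
Percent of loci whose highest or lowest library within a group is each replicate, for the 76 members (dark bars) and for 18583 other loci at 2 CPM or more in every co-cultivated library (light bars). Co-cultivated replicate 1 is the highest library for 50% of the members and 24% of the other loci, and control replicate 2 is the lowest for 56.6% and 37.9%.

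Members also spread more widely over the co-cultivated libraries than the other tested loci with at least 2 CPM in each. Those loci were not chosen for a difference between the groups, and loci called higher outside the members were not compared as a set. Of the latter, SPX2 ran from 14.1 to 30.5 CPM and RR10 from 20.9 to 63.7 CPM over the co-cultivated libraries. RR1 ran from 3.21 to 5.45 CPM and Os01g0126900 from 59.4 to 66.8 CPM. The ratio of the highest to the lowest co-cultivated CPM had a median of 1.7 over the members, with quartiles of 1.4 and 2.3, against a median of 1.29 with quartiles of 1.17 and 1.51 over the other loci. It was 2 or more for 27 members (35.5%) and for 7.44% of the other loci, and 3 or more for 14 members (18.4%) and 1.92% of the others. The median ratio was 1.62 for members under 10 CPM and 1.8 for those at 10 CPM or more. At 13 members 1 co-cultivated library was at least 2 times the next, and it was replicate 1 at 4 of them, replicate 2 at 6 and replicate 3 at 3. The library in front was farthest from the next at Os10g0452700 at 8.09, 48.7 and 9.52 CPM and at Os10g0113100 at 6.01, 25.12 and 5.90 CPM, both led by co-cultivated replicate 2. At both loci the control libraries stayed at or below 1.42 CPM. By the ratio of the highest to the lowest library the widest member was Os08g0476900, at 24.2, 4.70 and 30.9 CPM, where replicate 2 lay far below the rest.

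Chromosome 1 held 22 of the 76 members, or 28.9%, against 14.5% of the tested loci with at least 2 CPM in every co-cultivated library. Chromosomes 7 and 10 held 8 each (10.5%), against 7.43% and 5.1%, and chromosome 3 held 3 (3.95%) against 13.8%. The share on chromosome 1 changed with the ratio asked for. With the ratio raised to 5 it was 36.7%. With the ratio lowered to 2 it was 19.5% of the 200 loci with the highest ratios, the rule's maximum. Members that lie next to each other are not independent, and 5 of the 6 pairs of members within 5 rows of each other in the locus order were on chromosome 1.

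**Figure D5:**
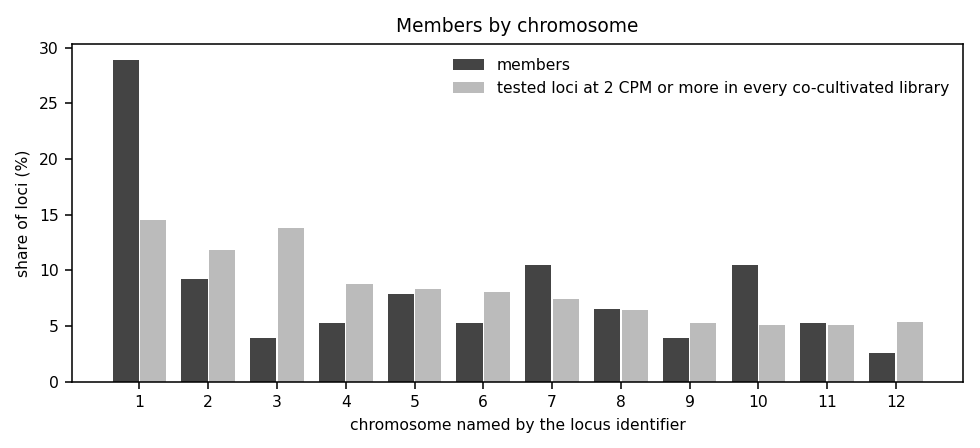
Percent of the 76 members and of tested loci at 2 CPM or more in every co-cultivated library that lie on each of the 12 chromosomes, taken from the locus identifiers. Chromosome 1 holds 28.9% of the members and 14.5% of the other set, and chromosome 3 holds 3.95% and 13.8%.

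Of the 6 pairs, 5 had no locus between them. Besides LPR4 and Os01g0127100 these were Os01g0237500 with Os01g0237750, Os01g0803800 with Os01g0803900, Os01g0895200 with Os01g0895300, and Os07g0683600 with Os07g0683900. Os01g0895200 stood at 16.0, 23.3 and 5.15 CPM in the control libraries and at 149, 149 and 137 CPM in the co-cultivated libraries. Its neighbour Os01g0895300 stood at 81.7, 80.6 and 35.1 CPM and at 305, 260 and 276 CPM in the same order, and control replicate 3 was the lowest library of both. Os01g0237500 and Os01g0237750 shared the order of the co-cultivated libraries, at 30.8, 8.40 and 16.5 CPM and at 10.6, 3.11 and 5.14 CPM. Os01g0803800, at 4.98, 3.62 and 12.2 CPM, and Os01g0803900, at 57.7, 74.0 and 77.1 CPM, shared the highest library but not the lowest.

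The loci around the members were looked at as well. Within 5 rows of a member lay 698 other loci, of which 461 were tested, and their median log2 fold change was 0.05. The test called 17 of them higher, or 3.69% against 1.46% of all tested loci, and 3 lower. Os07g0683200, beside Os07g0683600, was among the lower ones with a log2 fold change of −2.37.

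At the edge of the ratio threshold, Os02g0816300, Os07g0646800 and Os08g0156600 were included at 3.002, 3.019 and 3.039, and Os03g0126900, Os06g0115800 and Os05g0411150 were left out at 2.984, 2.984 and 2.956. At the edge of the level threshold, Os09g0520800, Os01g0919100 and Os12g0495600 were included with lowest co-cultivated values of 2.05, 2.09 and 2.13 CPM. Os12g0135100, Os01g0893700 and Os10g0444600 were left out at 1.95, 1.71 and 1.65 CPM. The last of these is the phosphate transporter gene PT3, which had no count in the control group and stood at 12.9, 6.57 and 1.65 CPM in the co-cultivated libraries. Co-cultivated replicate 3 alone kept it below the threshold, and against the floor of 3 counts it was at least 156.5-fold higher over the group.

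None of the 76 members was in any of 10 gene lists written from textbook knowledge with earlier results of these data known. This partly follows from the rule. FER1, FER2, VIT2, Os02g0770800 and Os03g0146800 are in these lists and met both thresholds, and the rule left them out by name. The shares over all tested loci were 1.46% for higher calls and 1.17% for lower calls. Of the phosphate starvation list 6 of 21 tested loci were called higher and 0 lower by edgeR, with a median log2 fold change of 2.05, and the excluded Os03g0146800 was among the 6. That count ran from 1 to 7 when each library was left out in turn, and it was 1 without control replicate 1 and likewise with the first or second co-cultivated library left out. DESeq2 called 11 of the 21 higher and 1 lower. Of the iron excess list 3 of 8 were called higher, and all 3 were loci that the rule left out. The count was 2 or 3 when each library was left out in turn. Of the cytokinin response list 2 of 6 were called higher. None of them was called when control replicate 1 or 3, or the first co-cultivated library, was left out, where 0 of 6 passed. Of the iron deficiency list 12 of 14 were called lower, and 8 to 13 when each library was left out in turn. The nitrate list had 1 of 21 tested loci called higher by edgeR, the excluded Os02g0770800, and 0 called lower. DESeq2 called 6 of 24 of that list higher. Of the diterpenoid phytoalexin list, edgeR called 0 of 10 tested loci despite a median log2 fold change of 2.21, with 5 higher at an unadjusted p under 0.05. DESeq2 called 4 of that list higher, and edgeR called 5 when the second co-cultivated library was left out. Of the pathogenesis and immunity list, 0 of 8 were called by edgeR or by DESeq2 and 0 had an unadjusted p under 0.05, while edgeR called 1 with the second co-cultivated library left out. Of the fermentation and low oxygen list 1 of 7 was called lower and 0 higher. The locus called lower was Os03g0226200, listed as the haemoglobin gene HB2, with a log2 fold change of −4.34. ADH1, ADH2, PDC1, PDC2 and SUS1 of that list were not called.

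The tissue label was checked against the same lists. All 6 root markers were detected in all 6 libraries, with a summed level of 1541 to 2505 CPM in the control group and 3415 to 5376 CPM in the co-cultivated group. The edgeR test called 0 of the 6, while 3 were higher at an unadjusted p under 0.05 and 3 were called higher by DESeq2. The list of 20 photosynthetic loci summed to 110 to 129.5 CPM in the control group and 148 to 236 CPM in the co-cultivated group. Most of the co-cultivated sum came from the single locus Os10g0502400, at 111 to 169 CPM. The edgeR test called 0 of the 17 tested loci of this list, with 2 higher and 3 lower at an unadjusted p under 0.05, and DESeq2 called 1 higher. RCA, PORA and PORB, which mark green tissue, were at or below 2.0 CPM in every library, and GLK1 at or below 4.14 CPM. Higher levels were found for CAB1R, at 8.58 to 19.8 CPM in the control group and 1.58 to 19.4 CPM in the co-cultivated group, for CHLH, at 5.38 to 18.3 and 4.18 to 6.23 CPM, and for Os11g0242800, at 11.2 to 16.4 and 12.7 to 23.7 CPM. The part of either sum in the members' levels was not tested.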

How the data were processed

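The libraries were poly-A selected and stranded (dUTP), per the labels' protocols. The authors deposited 1 table of estimated counts, not scaled between libraries, in which 9.21% of the members and 8.81% of tested loci held a value more than 1e-06 from a whole number. Per the submitters' processing notes, the build was IRGSP-1.0 and DESeq2 1.28.1 was used; which aligner and counter were used is not given in the sources used here. CPM was computed from the deposited counts and column totals. The quasi-likelihood test of edgeR 4.0.16 (R 4.3.3) was run on the rounded counts, with TMM factors, filterByExpr, group alone in the model and 4 residual degrees of freedom, and its two-sided p was adjusted (Benjamini-Hochberg) over 24615 loci, with a threshold of 0.05. The SE is the log2 fold change over the square root of F.

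The members and lists were chosen with earlier results of these data known. Symbols were written by hand and checked against a RefSeq gene table of the assembly ASM3414082v1 by chromosome and order. Distance from the interpolated position was checked only where pairs lay on both sides, which left out STAR2 and ZIP5 among the members. Of 153 pairs 96 passed, 46 symbols were not in the table, 7 had several entries and 4 lay over 500 kb away. The symbols of members and relatives were sought after the members' values had been seen. Names near the interpolated positions were then in view, so their passing was partly fixed in advance. Named loci are members with a checked symbol, the 15 highest ratios, the 10 most abundant and the 3 on each side of each threshold; relatives, neighbours and the loci led by a single library were added after their values were seen. No coordinates or sequences are given, since the builds differ and no sequence table was used here.

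Libraries of a group differed beyond sampling noise, with a chi-square per locus of 23.1 to 119, and the labels call them biological replicates. Alternatives were DESeq2 1.42.0, other scalings, no filter, a replicate block, other thresholds and leaving out each library.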

Additional observations from a re-analysis of the deposited data

How the results depend on the processing

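DESeq2 called 1488 loci higher and 943 lower, and 75 members. Leaving out 1 library gave 56 to 361 loci called higher, 83 to 493 called lower and 26 to 67 members called higher. The rule gave 200 members, its maximum, with a ratio of 2, and 30 with a ratio of 5. With 1 library left out, the rule gave 90 to 159 loci, with 130 without control replicate 1, 159 when the second co-cultivated library was left out and 155 when the third was, while a rule over fewer libraries is easier to meet. The number of members was 75 on TMM-scaled CPM, of which 74 were shared, and stayed within 1.5 times 76 with an offset of 0.5 CPM (54) or a minimum of 1 (84) or 5 CPM (53).

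Same-numbered libraries deviated together with correlations of 0.057, 0.146 and 0.174, against −0.203 to 0.076 for libraries of different numbers. Whether the numbers pair boxes was not tested. The replicate block gave 403 loci higher, 296 lower and 69 members, of which 67 were shared. Control replicate 1 and co-cultivated replicate 1 each correlated slightly more with another number, at 0.058 and 0.076, than with their own. Replicates 2 and 3 of both groups correlated most with their own number. All of the 32 members chosen by the naming rule were called in the main fit. None of them reversed under any alternative run, an outcome that the choice of members on the same contrast fixed in advance. Without control replicate 1, 2 or 3, 15, 1 and 2 of them were no longer called. Without co-cultivated replicate 1, 2 or 3 these were 14, 4 and 3, and under the block 1. The shares on chromosome 1 and with control replicate 2 lowest were tried under settings chosen after seeing the data. Depth limits the members with few control counts, of which 3 had at most 3 counts over the control group.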
